A study of Mus musculus with 4 samples.

Results

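Adipogenic regulators and lipid genes were examined in cultured mouse periosteal cells that did or did not carry a PDGFRα reporter. They are 10 genes named by symbol, namely the transcription factor genes *Pparg*, *Cebpa*, *Cebpb*, *Cebpd* and *Zfp423* and the genes *Fabp4*, *Lpl*, *Adipoq*, *Plin2* and *Cd36*, whose products act on lipid or mark fat cells. Of the 45802 gene symbols in the deposited table, 9 were rows of these genes, and *Plin2* was not analysed here. All 4 libraries had a value for 8 of the 10 genes, and *Adipoq* had a value in 3. The mice were male Pdgfrα mT/mG animals, 9 to 10 weeks of age, that had received tamoxifen (150 mg/kg per day for 5 days) and were killed 14 days after the last dose. In this model the *Pdgfra* promoter drives a tamoxifen-dependent Cre, which turns a membrane tdTomato reporter into membrane GFP. The label therefore records *Pdgfra* promoter activity at the time of tamoxifen and not at the time of sorting. PDGFRα reporter+ cells were GFP positive, and PDGFRα reporter- cells were tdTomato positive. Both populations carried the same alleles, had the same tamoxifen and were expanded together with 10 ng/mL bFGF for 1 passage. Both were sorted from hindlimb periosteal digests as negative for CD31, CD45 and Ter119. Cells of 3 to 6 mice were pooled for each population per the sample labels (the methods give a larger number), and the strain background was not given in the sources used here.

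Total RNA of 2 libraries per population was sequenced, and the authors deposited quantile-normalized log2 expression values, with a blank where a gene had none. The unit under the logarithm was not given in the sources used here, the depth is unknown, and values are compared between libraries for the same gene, or for the summed level of the same marker list, not between genes. The table numbers the libraries of each population 2 and 3, whereas the labels number the replicates 1 and 2, so that libraries are named by population and table number. Nothing in the labels says that libraries with the same number were prepared together or that the replicates were separate cultures, and p-values measure only the spread between these libraries. The 8 genes chosen as markers of periosteal stromal cells (*Pdgfra*, *Pdgfrb*, *Prrx1*, *Col1a1*, *Col1a2*, *Postn*, *Thy1* and *Lum*) had a value in each library, with *Pdgfra* between 7.44 and 7.87. They were not all alike between libraries. *Lum* was 5.96 and 6.04 in PDGFRα reporter+ and 4.61 and 3.73 in PDGFRα reporter- libraries 2 and 3, a log2 fold change of 1.83 (SE 0.33, limma adjusted p of 1). *Postn* ran from −1.13 to 3.04, with both libraries numbered 3 above both numbered 2 and PDGFRα reporter+ cells lower within each number (log2 fold change −1.14, SE 1.45). Of the 8 markers, 1 was higher and 5 were lower in PDGFRα reporter+ cells within both numbers (22.1% and 24.8% of all genes tested). Both libraries numbered 3 lay above both numbered 2 for 2 of the 8 (36.4% of all genes) and below them for 5. The share of all genes below was not counted, so that nothing is read from the 5.

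Adipogenesis is the formation of fat cells from mesenchymal progenitors. In culture, C/EBPβ and C/EBPδ act early and turn on *Pparg* and *Cebpa*, whose products PPARγ and C/EBPα then maintain each other's expression and switch on the genes of lipid uptake and storage. Stromal cells of bone can form fat cells as well as bone cells, and PPARγ is known for favoring the former. The zinc finger protein encoded by *Zfp423* marks committed preadipocytes.

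Promoter sequence is shown for 2 genes at the center of this circuit and a gene of mature fat cells whose levels differed between libraries (*Pparg*, *Cebpa* and *Adipoq*), and for *Cebpb*, whose level hardly varied. The sequences are the 250 bases before an annotated start in RefSeq on GRCm38.p6, the build named in the submitters' processing notes. RefSeq windows were matched for 7 of the 10 symbols, and the genes without one were *Cebpd*, *Fabp4* and *Lpl*. All 4 windows lie on the plus strand and are written 5′ to 3′. Capitals mark matches on either strand to the C/EBP-type motif TTGCNNAA, the CCAAT box and the TATA box TATAAA.
Pparg, chr6:115421816-115422065: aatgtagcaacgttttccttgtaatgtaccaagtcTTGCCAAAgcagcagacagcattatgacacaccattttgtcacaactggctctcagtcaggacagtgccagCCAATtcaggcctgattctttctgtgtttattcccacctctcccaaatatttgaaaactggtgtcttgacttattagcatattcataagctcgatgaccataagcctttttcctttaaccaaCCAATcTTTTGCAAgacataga
Cebpa, chr7:35119043-35119292: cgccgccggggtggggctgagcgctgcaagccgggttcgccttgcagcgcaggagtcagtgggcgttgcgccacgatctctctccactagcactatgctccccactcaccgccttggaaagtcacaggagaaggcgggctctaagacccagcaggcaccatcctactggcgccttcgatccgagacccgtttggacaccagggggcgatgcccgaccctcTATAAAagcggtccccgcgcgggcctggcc
Adipoq, chr16:23146286-23146535: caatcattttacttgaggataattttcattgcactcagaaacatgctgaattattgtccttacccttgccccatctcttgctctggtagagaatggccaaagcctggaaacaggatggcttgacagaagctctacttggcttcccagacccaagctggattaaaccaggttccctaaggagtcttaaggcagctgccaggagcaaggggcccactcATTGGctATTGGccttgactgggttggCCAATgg
Cebpb, chr2:167688665-167688914: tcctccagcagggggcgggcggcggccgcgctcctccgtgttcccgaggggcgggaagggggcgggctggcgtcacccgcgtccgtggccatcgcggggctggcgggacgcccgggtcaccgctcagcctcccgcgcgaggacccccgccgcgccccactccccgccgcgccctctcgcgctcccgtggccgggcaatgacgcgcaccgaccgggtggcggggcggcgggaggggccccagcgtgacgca

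The *Pparg* window belongs to the most downstream of the 3 starts listed for this gene. It held 2 C/EBP-type matches, with first bases at −215 on the plus strand and −16 on the minus strand, and CCAAT at −144 and −22, where −1 is the base just before the start. The *Adipoq* window held CCAAT at −34 and −27 on the minus strand and at −7 on the plus strand, and the *Cebpa* window held TATAAA at −30. The *Cebpb* window held none of these letters. No 2 matches overlapped in these windows, and the nuclear receptor half-site AGGTCA was in none of them. The windows of the other *Pparg* starts, not printed, both held AGGTCA on the plus strand, at −28 and −9. The window with the match at −9 also held CCAAT at −83 and TATAAA at −29 on the minus strand. Neither held a C/EBP-type match, whereas a window of *Zfp423*, not printed, held one at −131 on the plus strand. Over all 32851 windows of this length, both strands, TTGCNNAA was found in 9.56%, CCAAT in 33.8%, TATAAA in 12.4% and AGGTCA in 14%. A match is a description of the letters and not a measurement of binding.

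*Pparg* encodes the nuclear receptor that is required for fat cell formation and lies at chr6:115360951-115490399 on the plus strand. It had log2 values of 0.48 and 2.50 in PDGFRα reporter+ libraries 2 and 3, and 0.18 and 3.26 in PDGFRα reporter- libraries 2 and 3. Both libraries numbered 3 were high and both numbered 2 low, and the populations overlapped. The difference, PDGFRα reporter+ minus PDGFRα reporter-, was 0.30 within number 2 and −0.76 within number 3. The mean log2 value was 1.49 ± 1.43 for PDGFRα reporter+ and 1.72 ± 2.18 for PDGFRα reporter- cells (SD, n = 2 each), a log2 fold change of −0.23 with an SE of 1.25 and an adjusted p of 1 by limma. The 95% interval ran from −3.55 to 3.09 and holds the distance between the numbers, which this model counts as spread.

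*Cebpa*, at chr7:35119293-35121928 on the plus strand, encodes the C/EBP factor that acts together with PPARγ in late adipogenesis. It had log2 values of 2.40 and 4.34 in PDGFRα reporter+ libraries 2 and 3, and 2.46 and 5.00 in PDGFRα reporter- libraries 2 and 3. The order of the libraries by number was that of *Pparg*, with the PDGFRα reporter- library 3 highest. The difference between populations was −0.05 within number 2 and −0.65 within number 3, and the log2 fold change was −0.35 (SE 1.08, limma adjusted p of 1).

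The early factors *Cebpb* and *Cebpd* varied far less. *Cebpb* (chr2:167688915-167690418, plus strand) had log2 values of 5.64 and 5.72 in PDGFRα reporter+ and 5.73 and 5.51 in PDGFRα reporter- libraries 2 and 3. The populations overlapped, and the 95% interval of the log2 fold change of 0.06 (SE 0.16) ran from −0.36 to 0.48, the narrowest among these genes. *Cebpd* (chr16:15887286-15891031, plus strand) had log2 values of 5.18 and 5.69 in PDGFRα reporter+ and 5.57 and 5.20 in PDGFRα reporter- libraries. PDGFRα reporter+ cells were 0.39 lower within number 2 and 0.49 higher within number 3, with an overall log2 fold change of 0.05 (SE 0.25) and an interval from −0.62 to 0.71. For both genes the direction within number 2 was opposite to that within number 3.

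*Zfp423* (chr8:87661810-87959595, minus strand) had log2 values of −0.52 and −0.36 in PDGFRα reporter+ and −0.47 and 0.28 in PDGFRα reporter- libraries 2 and 3. The PDGFRα reporter- library 3 stood above the other libraries, which lay close together. The log2 fold change was −0.35 (SE 0.39, limma adjusted p of 1), made of −0.06 within number 2 and −0.64 within number 3. *Pparg* overlaps the antisense gene *Gm44079* and *Cebpa* the antisense gene *Gm45091*, and *Cebpb* and *Cebpd* overlap *Tmem189* and *Spidr* on the opposite strand. The library kit was stranded, but whether strand was used in counting was not given in the sources used here, so that reads of overlapping genes may be shared in these values.

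**Figure D1:**
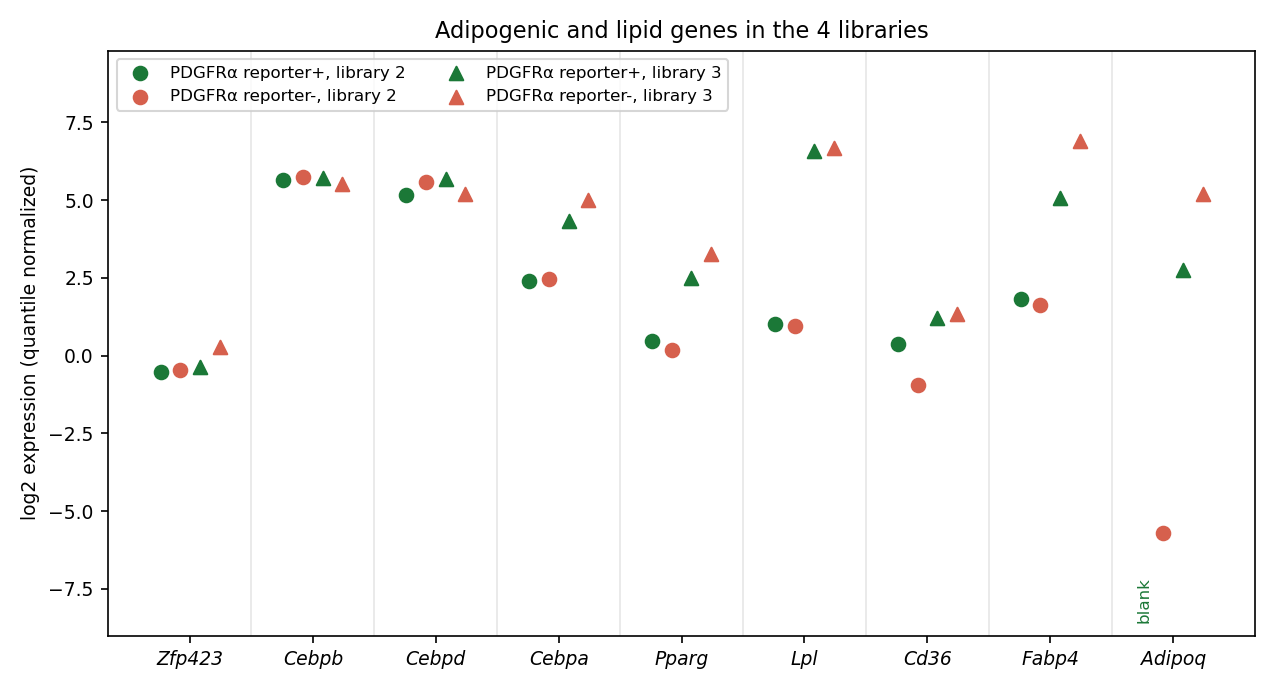
Log2 expression (quantile normalized) of the 9 genes with a row in the table, 1 point per library. Green marks PDGFRα reporter+ and red PDGFRα reporter- cells, circles mark libraries numbered 2 and triangles those numbered 3, and "blank" marks the library without a value. *Lpl* lay at 1.03 and 0.96 in the libraries numbered 2 and at 6.58 and 6.66 in those numbered 3, while *Cebpb* stayed between 5.51 and 5.73.

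*Lpl* encodes lipoprotein lipase, the secreted enzyme that releases fatty acids from circulating triglyceride, and lies at chr8:68880491-68907448 on the plus strand. Log2 values were 1.03 and 6.58 in PDGFRα reporter+ libraries 2 and 3, and 0.96 and 6.66 in PDGFRα reporter- libraries 2 and 3. The populations were almost alike within each number (0.06 within number 2 and −0.09 within number 3), whereas the numbers stood far apart. Library 3 was 46.8-fold above library 2 in PDGFRα reporter+ cells and 52.0-fold above it in PDGFRα reporter- cells. By the mean of these differences, *Lpl* had rank 3 among the 14415 genes that had 4 values. For this gene, the log2 fold change between populations was −0.01 with an SE of 2.66, since limma without the number in the model takes this distance as spread.

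*Cd36* encodes a fatty acid translocase that is also a scavenger receptor of macrophages and is found on capillary endothelium. Located at chr5:17781690-17888801 on the minus strand, it had log2 values of 0.36 and 1.20 in PDGFRα reporter+ and −0.95 and 1.35 in PDGFRα reporter- libraries 2 and 3. The PDGFRα reporter- library 2 was the low one. Within number 2, PDGFRα reporter+ cells were 1.32 higher (2.49-fold), and within number 3 they were 0.15 lower. The log2 fold change was 0.58 (SE 0.86, limma adjusted p of 1).

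*Fabp4* encodes the fatty acid binding protein of fat cells, a target of PPARγ that macrophages and capillary endothelium also express. At chr3:10204088-10208576 on the minus strand, it had log2 values of 1.82 and 5.07 in PDGFRα reporter+ and 1.63 and 6.90 in PDGFRα reporter- libraries 2 and 3. Both libraries numbered 3 were above both numbered 2, and PDGFRα reporter- library 3 was highest. PDGFRα reporter+ cells were 0.19 higher within number 2 and 1.83 lower within number 3, which is 3.55-fold. Their mean was 3.45 ± 2.30 against 4.27 ± 3.72 (SD, n = 2 each), a log2 fold change of −0.82 with an SE of 2.07 and a 95% interval from −6.34 to 4.70 by limma. Library 3 was 9.51-fold above library 2 in PDGFRα reporter+ cells, and 38.5-fold in PDGFRα reporter- cells.

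*Adipoq*, at chr16:23146536-23158028 on the plus strand, encodes adiponectin, a hormone made by mature fat cells. It was blank in PDGFRα reporter+ library 2 and had a log2 value of −5.69 in PDGFRα reporter- library 2, below that library's lower quartile (−1.47). In the libraries numbered 3 it was 2.74 for PDGFRα reporter+ and 5.20 for PDGFRα reporter- cells, a difference of −2.46 (5.50-fold lower in PDGFRα reporter+ cells). With 1 library on each side, this difference has no replicate check, and *Adipoq* did not enter the model. A lower level in sorted bulk RNA can come from fewer cells of a type or from less RNA per cell, which cannot be told apart here.

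No gene of the 14415 tested had an adjusted p under 0.05 by limma without the library number in the model (0%), and 131 had an unadjusted p under 0.05. None of the 8 adipogenic and lipid genes tested was among either. With the number as a block, 29 genes of all tested passed the adjusted threshold, none of them among the 8. With 2 libraries against 2, the smallest two-sided p that an exact permutation test can give for 1 gene is 0.333. The populations overlapped for all 8 genes, whereas 7.59% of all genes had both PDGFRα reporter+ libraries above both PDGFRα reporter- libraries, and 8.1% had them below. PDGFRα reporter+ cells were lower within both numbers for *Cebpa* and *Zfp423* and higher within both for no gene, against 24.8% of all genes lower and 22.1% higher. The other 6 genes went in opposite directions within the 2 numbers. The 8 genes had a median log2 fold change of −0.12, against −0.0035 over all genes tested.

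Within number 2, *Cd36* was higher by more than 1 on the log2 scale, as were 4.13% of all genes with both values, and none of the 8 genes was lower by that much (3.94% of all genes). Within number 3, 2 of 9 genes (*Fabp4* and *Adipoq*) were lower by more than 1, as were 4.37% of all genes, and none was higher by that much (4.86%). In all, 7 of the 9 genes were lower in PDGFRα reporter+ library 3 than in PDGFRα reporter- library 3, and *Cebpb* and *Cebpd* were higher. Within number 2, 4 of 8 were lower and 4 higher. Of all genes with both values, 52.6% were lower within number 3 and 50.1% within number 2. Whether the difference between populations itself differed between the numbers was not tested, since 4 libraries leave no spread for it.

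**Figure D2:**
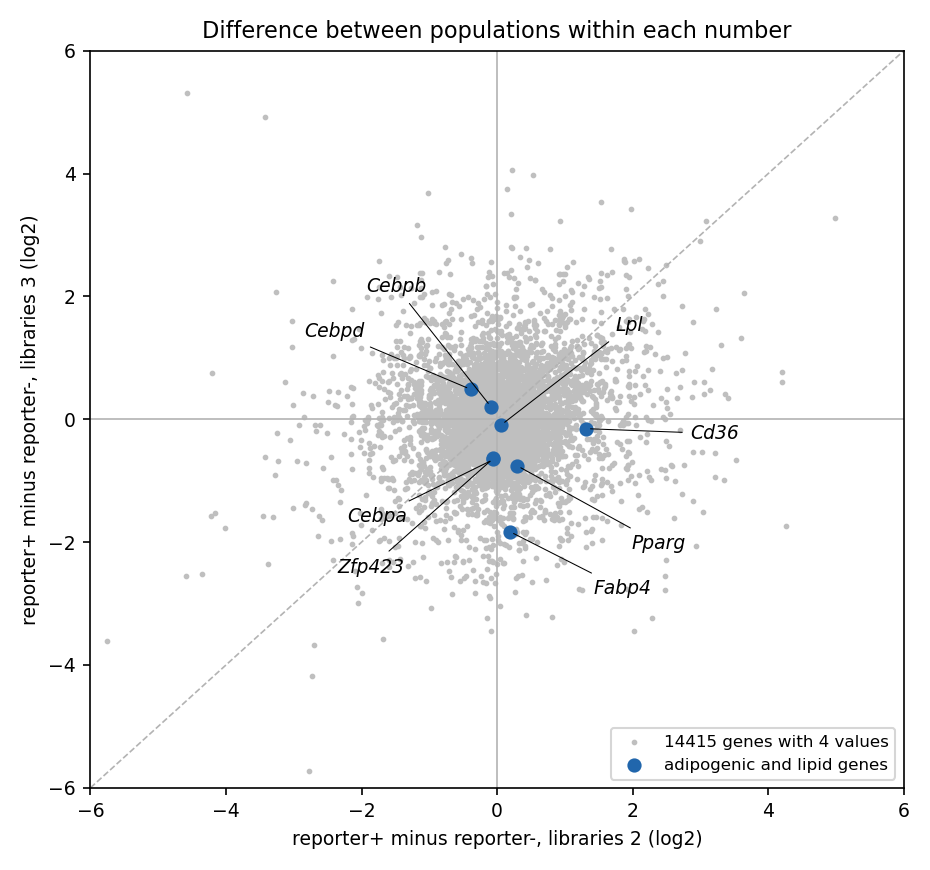
Log2 difference of PDGFRα reporter+ minus PDGFRα reporter- cells within libraries 2 (horizontal) and within libraries 3 (vertical), with 14415 genes in gray and the 8 adipogenic and lipid genes with 4 values in blue. The dashed line marks equal differences, and *Fabp4* (0.19 and −1.83) and *Cd36* (1.32 and −0.15) lay away from it.

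The distance between library numbers was larger than that between the population means for 8 of 8 genes, as it was for 75.7% of all genes tested. For *Cebpb* and *Cebpd* the margin was small (mean differences between numbers of −0.07 and 0.07 against log2 fold changes of 0.06 and 0.05). The distance is described without a test, since the labels give the number no meaning. Library 3 exceeded library 2 by more than 1 on the log2 scale in both populations for *Pparg*, *Cebpa*, *Fabp4* and *Lpl*, a limit chosen after their values were seen. Of all genes tested, 5.35% did so and 4.36% were lower by that much in both populations. As a mean over populations, library 3 was 5.88-fold above library 2 for *Pparg*, 4.73-fold for *Cebpa*, 19.1-fold for *Fabp4* and 49.3-fold for *Lpl*. Both libraries numbered 3 lay above both numbered 2 for 6 of 8 genes, against 36.4% of all genes. The exceptions were *Cebpb* and *Cebpd*. In *Adipoq*, PDGFRα reporter- library 3 was 10.89 above library 2, from a low value of −5.69 in library 2.

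**Figure D3:**
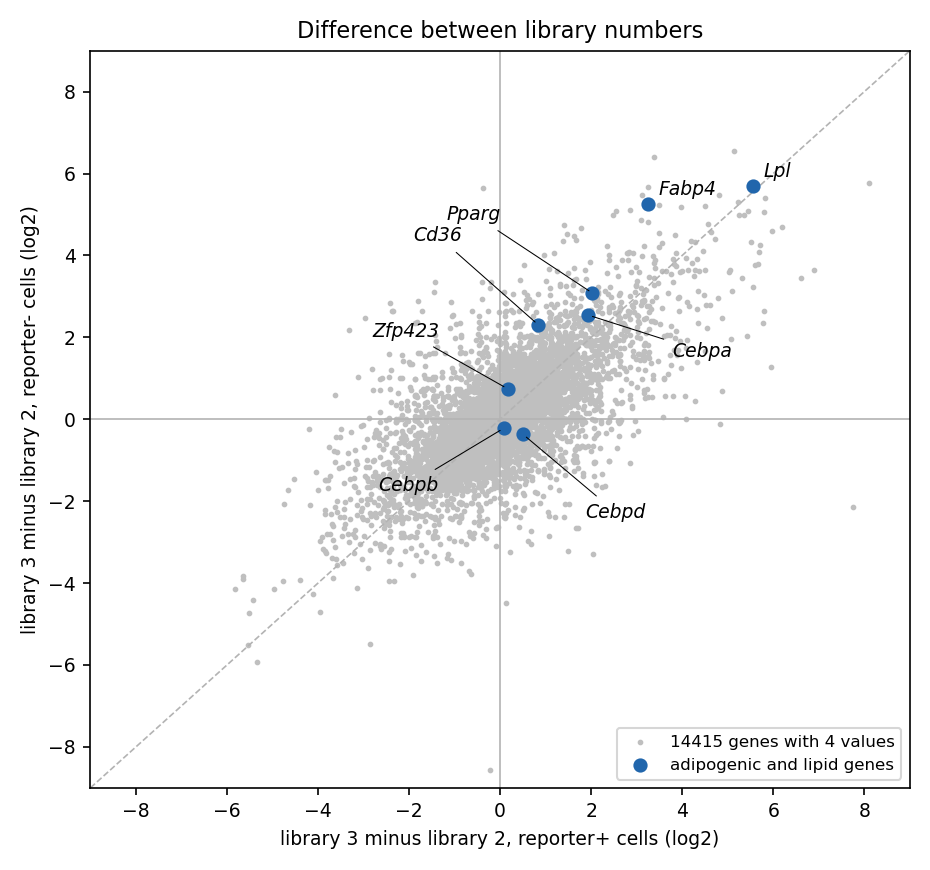
Log2 difference of library 3 minus library 2 in PDGFRα reporter+ (horizontal) and PDGFRα reporter- cells (vertical), with 14415 genes in gray and the 8 adipogenic and lipid genes with 4 values in blue. The dashed line marks equal differences. *Lpl* (5.55 and 5.70) and *Fabp4* (3.25 and 5.27) lay far to the upper right, and *Cebpb* (0.08 and −0.22) lay near 0.

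Other genes of the pathway were taken from lists of textbook roles, and none of the genes in these lists had an adjusted p under 0.05, or an unadjusted p under 0.05, by limma. The counts for these lists stand against 22.1% of all genes higher and 24.8% lower within both numbers, and 7.59% higher and 8.1% lower without overlap. Of the 24 other activators of adipogenesis, 3 lay above and 8 below PDGFRα reporter- cells within both numbers, none without overlap of the populations, and the median log2 fold change was −0.01. *Ebf2*, an early B cell factor of preadipocytes, had log2 values of −0.13 and 2.17 in PDGFRα reporter+ and 0.80 and 2.81 in PDGFRα reporter- libraries 2 and 3. Its log2 fold change was −0.78 (SE 1.04), and the libraries numbered 3 were again the high ones. The Krüppel-like factor gene *Klf4* had a log2 fold change of −0.45 (SE 0.30), its relative *Klf9* one of 0.44 (SE 0.30), and *Mecom*, listed as Prdm3, one of 0.21 (SE 0.52).

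Of the 18 partners and coregulators of PPARγ, 4 were higher and 4 lower within both numbers, close to the shares over all genes, and 1 was higher and 3 lower without overlap, with a median of −0.05. The coactivator genes *Ncoa1* and *Ncoa3* had log2 fold changes of 0.08 (SE 0.37) and 0.18 (SE 0.16). The coactivator gene *Ncoa2* had −0.16 (SE 0.17). *Rxra*, the main partner of PPARγ in DNA binding and chosen after its values were seen, stayed between 4.21 and 4.49 in the 4 libraries. *Pparg* itself ran from 0.18 to 3.26.

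Of the 28 inhibitors of adipogenesis, 27 had 4 values, 3 of these were higher and 5 lower within both numbers, and 1 was lower without overlap, with a median of −0.09. The Wnt effector gene *Tcf7l2* had a log2 fold change of −0.50 (SE 0.51), and *Gata2*, which encodes a repressor of *Pparg*, one of −0.29 (SE 0.41). *Foxc2* and *Tgfb1* had 0.06 (SE 0.18) and 0.04 (SE 0.45). *Dlk1*, which encodes the preadipocyte factor Pref-1 and was chosen after its values were seen, was 3.01 and 3.44 in PDGFRα reporter+ and 2.68 and 4.75 in PDGFRα reporter- libraries 2 and 3. As in *Fabp4*, the PDGFRα reporter- library 3 was the highest.

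Of the 31 genes of fatty acid uptake and lipoprotein lipolysis, 24 had 4 values, 3 of these were higher and 6 lower within both numbers, and 2 were higher and 1 lower without overlap, with a median of −0.05. *Angptl4*, which encodes an inhibitor of lipoprotein lipase, had log2 values of 6.04 and 6.64 in PDGFRα reporter+ and 5.01 and 5.99 in PDGFRα reporter- libraries 2 and 3. PDGFRα reporter+ cells were above PDGFRα reporter- cells within each number (1.03 and 0.65) without overlap, and the log2 fold change was 0.84 (SE 0.41, limma adjusted p of 1). *Lpl*, the enzyme it inhibits, differed by 0.09 or less within each number. The fatty acid transporter gene *Slc27a3* and the acyl-CoA synthetase gene *Acsl5* had log2 fold changes of −0.22 (SE 0.37) and −0.12 (SE 0.18).

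Of the 32 genes of lipid droplets and triglyceride turnover, 26 had 4 values, 5 of these were higher and 9 lower within both numbers, and 2 were higher and 6 lower without overlap (7.59% and 8.1% of all genes), with a median of −0.13. *G0s2*, which encodes an inhibitor of adipose triglyceride lipase, had log2 values of 0.64 and 1.38 in PDGFRα reporter+ and 0.74 and 3.08 in PDGFRα reporter- libraries 2 and 3. *Pnpla2*, which encodes that lipase, had 2.18 and 1.96 in PDGFRα reporter+ and 2.24 and 3.03 in PDGFRα reporter- libraries. In both genes the PDGFRα reporter- library 3 stood above the other libraries, and the log2 fold changes were −0.90 (SE 0.84) and −0.57 (SE 0.32). *Abhd5*, which encodes the activator of the same lipase, had 0.33 (SE 0.24) and *Hilpda*, which encodes another inhibitor, 0.27 (SE 0.20). The list's genes *Plin1*, *Cidec* and *Aqp7*, named after their values were seen, were blank in both libraries numbered 2 and had a value in both numbered 3, a pattern of 1.3% of the 16742 genes with any value. *Cidea*, also named after its values were seen, had the reverse pattern, which was that of 0.824% of these genes, with −5.73 in PDGFRα reporter+ and −3.99 in PDGFRα reporter- library 2 and blanks in both libraries numbered 3. *Plin1*, the main lipid droplet coat gene of fat cells, was 0.30 in PDGFRα reporter+ and 3.03 in PDGFRα reporter- library 3.

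Of the 24 adipokines and other genes of mature adipocytes, 12 had 4 values, 3 of these were higher and 6 lower within both numbers, and 1 was higher without overlap, with a median of −0.09. *Nampt* and *Apln* had log2 fold changes of 0.49 (SE 0.24) and 0.23 (SE 0.32). The integrin gene *Itgb3*, in the list though not particular to fat cells, had −0.58 (SE 0.46). *Cdh13*, which encodes a receptor for adiponectin, had −0.20 (SE 0.95). In both of these genes library 3 lay below library 2 in each population. The receptor genes *Adipor1* and *Adipor2*, chosen after their values were seen, differed by 0.10 or less between populations within each number, beside the difference of 2.46 in *Adipoq*. Within number 3, 16 of 21 genes of this list were lower in PDGFRα reporter+ cells (52.6% of all genes), 7 of them by more than 1 (4.37%), and none was higher by that much (4.86%). Within number 2, 7 of 12 were lower (50.1% of all genes), 1 of them by more than 1 (3.94%). All 7 genes lower by more than 1 within number 3 were blank in at least 1 library numbered 2. They could not be counted within number 2, so that the counts are of different genes. Within a number, each population was 1 library. Of the lipid droplet genes, 8 of 29 were lower by more than 1 within number 3 (4.37% of all genes) and 1 was higher by that much (4.86%). Within number 2, 1 of 27 was lower by that much (3.94%) and none higher (4.13%). Of the 8 genes lower within number 3, *Plin1*, *Cidec* and *Aqp7* were blank in both libraries numbered 2.

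**Figure D4:**
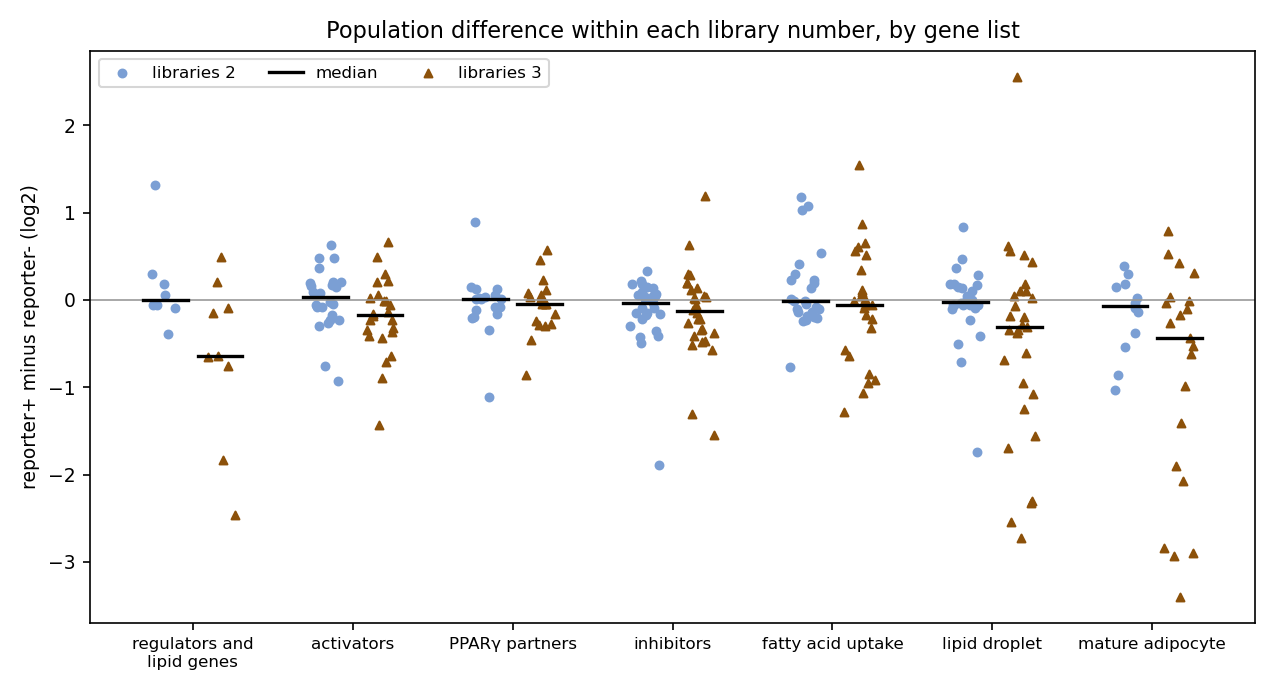
Log2 difference of PDGFRα reporter+ minus PDGFRα reporter- cells for each gene of the lists, within libraries 2 (circles) and within libraries 3 (triangles), with bars at the median. Within libraries 3, *Adipoq* (−2.46) and *Fabp4* (−1.83) were the lowest of the regulators and lipid genes, and points below −2 were found in this group and among the lipid droplet and mature adipocyte genes.

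Marker genes of mature adipocytes, macrophages and endothelial cells are described next, and their association with the differences above was not tested. Of 10 markers of mature adipocytes, all of them already counted above (*Adipoq* itself and genes of the lipid droplet and mature adipocyte lists), so that they add no separate evidence, 4 and 8 had a value in PDGFRα reporter+ and 3 and 8 in PDGFRα reporter- libraries 2 and 3, and *Lep* and *Pck1* had none. The log2 of their summed level was 0.94 and 4.71 in PDGFRα reporter+ and 0.70 and 6.79 in PDGFRα reporter- libraries. Of these markers, *Lipe*, chosen after its values were seen, was 0.82 and 0.67 in the libraries numbered 2, and the other markers with a value lay below −3 there. All 8 with values were lower in PDGFRα reporter+ cells within number 3 (52.6% of all genes), 7 of them by more than 1 (4.37%).

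Of 12 macrophage markers, 10 of the 11 with 4 values were higher in PDGFRα reporter+ cells within both numbers (22.1% of all genes tested), 7 without overlap (7.59%), although CD45-positive cells had been sorted out. The log2 of their summed level was 7.91 and 8.15 in PDGFRα reporter+ and 6.58 and 7.49 in PDGFRα reporter- libraries 2 and 3. Within number 2, where *Cd36* was higher by 1.32, 10 of 11 of these genes were higher by more than 1 (4.13% of all genes). Within number 3, where *Cd36* was lower by 0.15, none of the 12 was lower (52.6% of all genes). Of these, 3 were higher by more than 1 (4.86%). Of markers chosen after their values were seen, *Lyz2* ran from 6.27 to 7.88 and *Ptprc*, which encodes CD45, from −2.30 to −0.39.

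Of 10 endothelial markers, 8 had 4 values, 6 of which were lower in PDGFRα reporter+ cells within both numbers (24.8% of all genes tested), 4 without overlap (8.1%). The log2 of their summed level was 1.46 and 1.81 in PDGFRα reporter+ and 1.78 and 2.74 in PDGFRα reporter- libraries, and *Egfl7* stayed between 1.00 and 1.29. *Tek*, chosen after its values were seen, was −3.00 and 0.05 in PDGFRα reporter+ and −2.50 and 1.10 in PDGFRα reporter- libraries 2 and 3. For 2 of the 8 markers (36.4% of all genes), *Tek* among them, both libraries numbered 3 lay above both numbered 2. The junction genes *Pecam1* and *Cdh5* and the sialomucin gene *Emcn*, chosen after their values were seen, were below 0 in each library and differed more between populations. Within numbers 2 and 3, PDGFRα reporter+ cells were lower by 6.49-fold and 12.8-fold for *Pecam1*, 6.86-fold and 53.2-fold for *Cdh5*, and 20.5-fold and 5.75-fold for *Emcn*. These folds rest on low values. In PDGFRα reporter+ libraries 2 and 3, *Pecam1* was −4.68 and −4.79, *Cdh5* −4.75 and −6.40 and *Emcn* −6.07 and −3.99. All of these lay below the lower quartile (−1.47). The part of these cell types in the values of *Cd36*, *Fabp4*, *Lpl* and *Adipoq* was not tested.

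**Figure D5:**
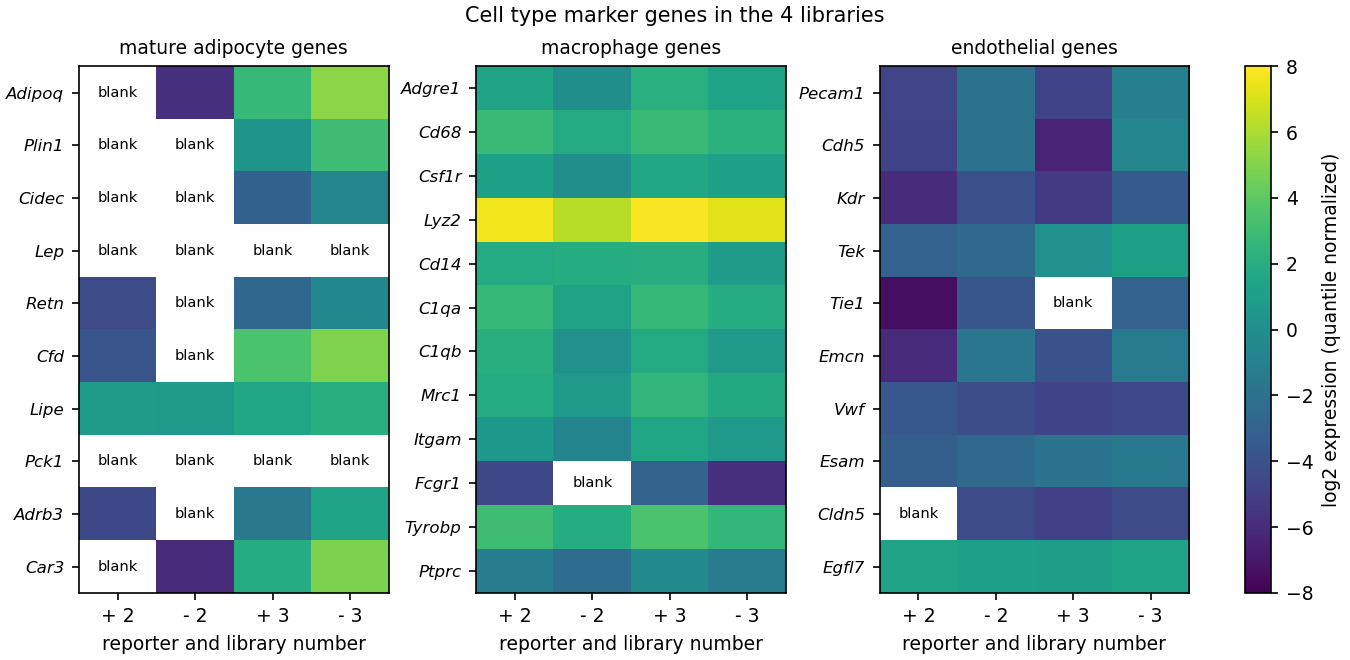
Log2 expression (quantile normalized, color scale) of marker genes of mature adipocytes, macrophages and endothelial cells in each library, given by reporter sign and table number, with "blank" where no value was listed. *Adipoq* and most other mature adipocyte genes had values more often in the libraries numbered 3 (8 of 10 genes in each), and *Lyz2* was between 6.27 and 7.88 in all 4 libraries.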

How the data were processed

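Total RNA of 2 PDGFRα reporter+ and 2 PDGFRα reporter- libraries was sequenced as stranded paired-end reads on an Illumina instrument. The submitters' processing notes name bcl2fastq 2.17.1.14, Partek 7.0 and the build GRCm38.p6. The authors deposited log2 expression values that they had quantile normalized, 1 for each gene symbol in each library. The lowest value (−10.07), the quartiles (−1.47, 1.48 and 3.00) and the highest value (11.73) were the same in the 4 libraries. The aligner, the counting, the unit under the logarithm and the filters were not given in the sources used here, so that depth and counting error are unknown. Between 15423 and 15605 genes had a value per library. Table columns were assigned to a population by their heading, not to a replicate.

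Log2 fold changes were means of PDGFRα reporter+ minus means of PDGFRα reporter- libraries. A two-sided limma test (version 3.58.1, R 4.3.3, lmFit and eBayes with a variance trend, no block) was run on the 14415 genes that had 4 values, with Benjamini-Hochberg adjustment and a threshold of 0.05. The script was tested on simulated data. Positions were from GENCODE M21. Summed levels are log2 of the sum of 2 to the power of each value, blanks left out. Python 3.11.15, pandas 2.3.3, numpy 2.4.6 and matplotlib 3.10.9 were used.

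The genes and lists were chosen with earlier results of these data known. Named are all 10 genes and, per list, up to 2 genes with the most positive and 2 with the most negative log2 fold change among those with 4 values, a mean of 0 or more and the same direction within both numbers; all other genes named, those of the marker lists and those with blanks included, were chosen after their values were seen. A gene that this rule names is not reported here. 2 listed symbols were matched by a synonym. Alternatives were a block for the library number, centering, a pseudocount of 1, a minimum mean of 0, blanks at the lowest value, no variance trend and leaving out each library.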

Additional observations from a re-analysis of the deposited data

How the results depend on the processing

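No adipogenic or lipid gene had an adjusted p under 0.05 by limma in any alternative, and the smallest was 0.785. In the 6 alternatives that kept all libraries, 47 of 47 log2 fold changes of these genes kept their direction and their side of the threshold, and their populations still overlapped. Sizes moved by over 1.5 times with a pseudocount of 1 for *Cd36* (0.24), *Zfp423* (−0.17) and *Lpl* (−0.024). The median of the genes was −0.013 with a minimum mean of 0 and −0.23 with blanks at the lowest value. With the library number as a replicate block, 29 genes of all tested passed (22 above and 7 below PDGFRα reporter- cells), and none was among the 8, whose SE was then 0.12 to 0.36 (0.24 for *Pparg*). Deviations of same-numbered libraries had a correlation of 0.681 across genes, but the labels give 2 pairs at most and do not say that the number marks a shared preparation. With genes of a mean of at least 0 only, 1 gene was lower within both numbers, since *Zfp423* was not tested. Genes with an unadjusted p under 0.05 numbered 913 with the block, 62 with that minimum, 262 with blanks at the lowest value and 273 without the variance trend.

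Leaving out 1 library unbalances the numbers, and 13 of 32 log2 fold changes then reversed. The ranges were −1.77 to 1.31 for *Pparg*, −1.63 to 0.92 for *Cebpa*, −0.052 to 0.17 for *Cebpb*, −0.20 to 0.30 for *Cebpd* and −0.72 to 0.026 for *Zfp423*. They were −3.45 to 1.81 for *Fabp4*, −2.86 to 2.84 for *Lpl* and −0.57 to 1.74 for *Cd36*. The median of the 8 genes ran from −1.17 (without PDGFRα reporter- library 2) to 1.11 (without PDGFRα reporter- library 3), and was 0.70 without PDGFRα reporter+ library 2. Between 0 and 4 genes were then higher and between 0 and 6 lower without overlap. These counts cannot be set beside the 7.59% and 8.1% of all genes given above. A population of 1 library overlaps less often, and the share of all genes was not counted for it.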
